A study of Drosophila melanogaster with 3 samples.

Results

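Downstream promoter peaks are called peaks from the chromatin immunoprecipitation of the tagged CG12071 protein. Their summits lay 51 to 500 bp past the nearest transcription start site (TSS), in the direction of transcription. They were taken from the list of 4261 peaks that the authors had thresholded by the irreproducible discovery rate (IDR), a measure of how well peak ranks agree between replicates. The TSSs were those of every transcript of a protein-coding gene. Of the 4261 peaks, 295 met the rule and were nearest to 290 genes, since 5 genes had more than 1 such peak. For comparison, 492 peaks had a summit within 50 bp of a TSS, 946 lay 51 to 500 bp upstream and 2528 lay farther away.

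The material was a transgenic fly line that stably expresses CG12071 fused at its C-terminal end to green fluorescent protein (GFP). Embryos of both sexes were collected at 12 to 24 h, and chromatin was sonicated to 200 to 800 bp before immunoprecipitation (ChIP-seq). There were 3 biological replicates of this 1 genotype and no second condition, so every comparison is between groups of peaks or between replicates. Whole embryos mix all cell types, and no peak can be assigned to a tissue. The gene annotation calls CG12071 an uncharacterized protein. The labels describe each replicate once as an input control, but the assay, antibody and control entries are those of an immunoprecipitation, and the replicates were treated as such.

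RNA polymerase II starts at the TSS and, at many fly genes, pauses shortly after it, ahead of the nucleosome that borders the open promoter. The stretch just past the TSS is usually the 5′ untranslated region (UTR) of the first exon, and it holds core promoter elements that general transcription factors read. Farther on, the first intron often begins, and fly first introns are known to carry enhancers and alternative promoters.

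Windows of 101 bp around the summits of 7 first-intron members are given below, 5′ to 3′ on the strand of the gene, because a forkhead word was more frequent in first-intron members than in other first-intron windows (values with the other words, further on). Capitals mark TAAACA or its reverse complement TGTTTA, the centre of the sequence that forkhead factors bind. The first 5 are among the 6 strongest of 53 exon-free windows on 2L, 3L, 3R and X, of which 15 hold the word. FoxK and CG9449 were added, after the windows had been read, as the next strongest with the longer word GTAAACA. The windows were at chr2L:21794915-21795015 (minus) for CG31612, chr2L:5907553-5907653 (plus) for bchs, chr3L:3046423-3046523 (minus) for scramb2, chr3R:23723760-23723860 (plus) for CG10365, chrX:4939928-4940028 (plus) for Ptp4E, chr3L:11120075-11120175 (minus) for FoxK and chr3L:19496190-19496290 (minus) for CG9449, all in dm6.
CG31612: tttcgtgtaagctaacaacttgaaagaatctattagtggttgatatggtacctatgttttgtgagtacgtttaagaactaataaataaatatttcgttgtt
bchs: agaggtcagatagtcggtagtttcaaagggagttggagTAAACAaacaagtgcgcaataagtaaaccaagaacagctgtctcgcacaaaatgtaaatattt
scramb2: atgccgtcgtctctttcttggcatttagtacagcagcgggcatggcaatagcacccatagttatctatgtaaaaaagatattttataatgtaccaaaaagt
CG10365: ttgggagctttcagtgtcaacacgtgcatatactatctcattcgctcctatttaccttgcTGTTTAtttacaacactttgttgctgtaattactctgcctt
Ptp4E: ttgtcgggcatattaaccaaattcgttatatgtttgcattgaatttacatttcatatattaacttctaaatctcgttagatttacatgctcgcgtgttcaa
FoxK: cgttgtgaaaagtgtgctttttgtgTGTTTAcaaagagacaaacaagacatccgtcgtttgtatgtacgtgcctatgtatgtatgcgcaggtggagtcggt
CG9449: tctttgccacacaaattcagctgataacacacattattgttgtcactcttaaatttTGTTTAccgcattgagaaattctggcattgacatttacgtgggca

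Among these 5, bchs holds GTAAACA, CG10365 holds only the shorter word, and CG31612, scramb2 and Ptp4E hold neither. In FoxK and CG9449 the longer word reads as its reverse complement. A match is a description of the letters, not a binding site.

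The peaks thinned out quickly with distance from the TSS. Summits within 50 bp of a TSS had a density of 26.1 per 100 kb of genome positions at that distance. Between 51 and 100 bp downstream the density was 12.9 per 100 kb, from 117 peaks. It was 6.28 from 101 to 150 bp, from 55 peaks, and 3.29 from 151 to 200 bp, from 28 peaks. The lowest value was 0.836 per 100 kb, from 7 peaks at 201 to 250 bp. Beyond that it lay between 1.75 and 2.79 per 100 kb in each bin of 50 bp up to 500 bp. The profile of the thresholded peaks therefore fell steeply up to 200 bp and was low beyond. The fall differed between replicates. In the same 3 bins from 51 to 200 bp, the strongest entries had 21.2, 8.45 and 5.52 per 100 kb in replicate 1. The values were 12.6, 6.85 and 2.70 in replicate 2, and only 4.63, 4.45 and 2.11 in replicate 3. The low value at 201 to 250 bp was not seen in the strongest entries of the replicates, which had 2.39, 2.27 and 1.67 per 100 kb there and 2.06, 1.82 and 1.58 at 251 to 300 bp. Because of the profile of the thresholded peaks, and after it had been seen, these peaks were also described in 2 zones. The near zone was 51 to 200 bp, with 200 peaks, and the far zone 201 to 500 bp, with 95 peaks. Upstream of the TSS the decline was slower, with 23.4 summits per 100 kb at 51 to 200 bp and 10.9 at 201 to 500 bp, against 7.59 and 1.96 downstream.

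**Figure D1:**
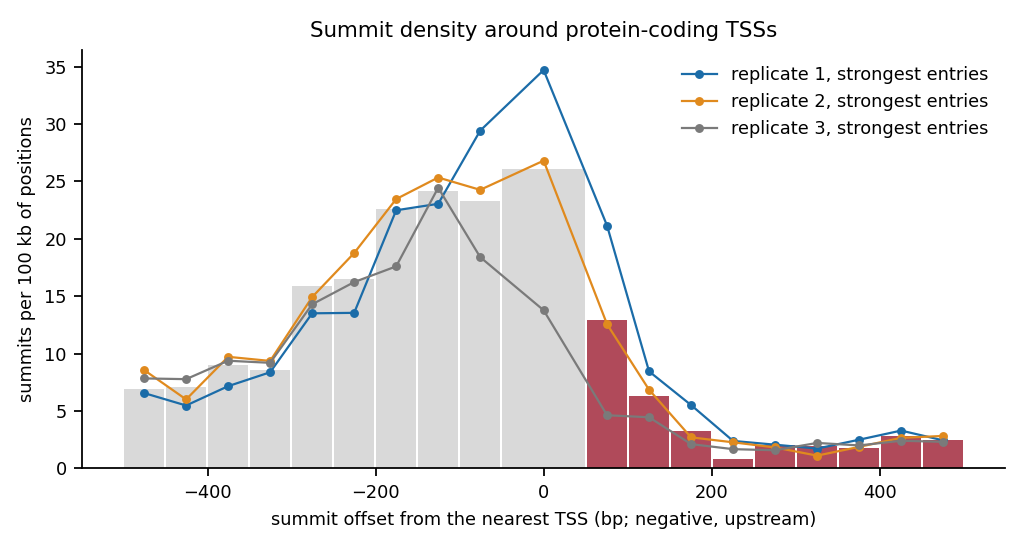
Density of peak summits against the offset from the nearest protein-coding TSS, in summits per 100 kb of positions at that offset. Bars are the thresholded peaks, with downstream bins of 50 bp in red and all others in grey (the bin around the TSS spans 50 bp to either side). Lines are the 4261 strongest entries of each replicate. The replicates lie apart from the TSS to about 100 bp downstream, where the density was 21.2, 12.6 and 4.63 per 100 kb in replicates 1, 2 and 3, and run together beyond 200 bp.

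The near and far zones fell on different parts of the gene. In the near zone 169 of 200 summits (84.5%, 95% Wilson interval 78.8 to 88.9) lay in a 5′ UTR exon, where 47.9% of all genome positions in that zone lie. In the far zone 62 of 95 summits (65.3%, 55.3 to 74.1) lay in the first intron, against 26.4% of all positions at that distance. Another 22 far summits (23.2%, 15.8 to 32.6) were in a 5′ UTR exon, against 15.04% of positions. Over both zones, 191 summits (64.7%) were in a 5′ UTR exon, 80 (27.1%, 22.4 to 32.5) in the first intron and 3 in a later intron. Coding exons held 8, and for 13 the transcripts of the TSS disagreed on the position. All intervals on shares cover counting error over peaks only. The shares of positions are over all TSSs, and those over the member TSSs alone were not computed. TSSs with a far member had a median first exon of 223 bp and first intron of 1504 bp, against 274 and 188 bp over all TSSs. For near members these were 384.5 and 1335.5 bp. The part of this gene structure in the contrasts was not tested.

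Coding sequence was almost free of these summits. Of all genome positions 51 to 500 bp downstream of a TSS, 44.2% are coding exon, yet 8 of the 295 summits (2.71%, 1.38 to 5.26) lay there. That 44.2% is also over all TSSs, not over the member TSSs alone. The strongest of the 8 were at CG44812, rank 1063 in the thresholded list, and CG32195, rank 1226. Both were among the strongest 4261 entries of all 3 replicates. Others were at pst, CG15531, CG1628, Got2, CG43815 and Cys, with ranks from 2031 to 4049.

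**Figure D2:**
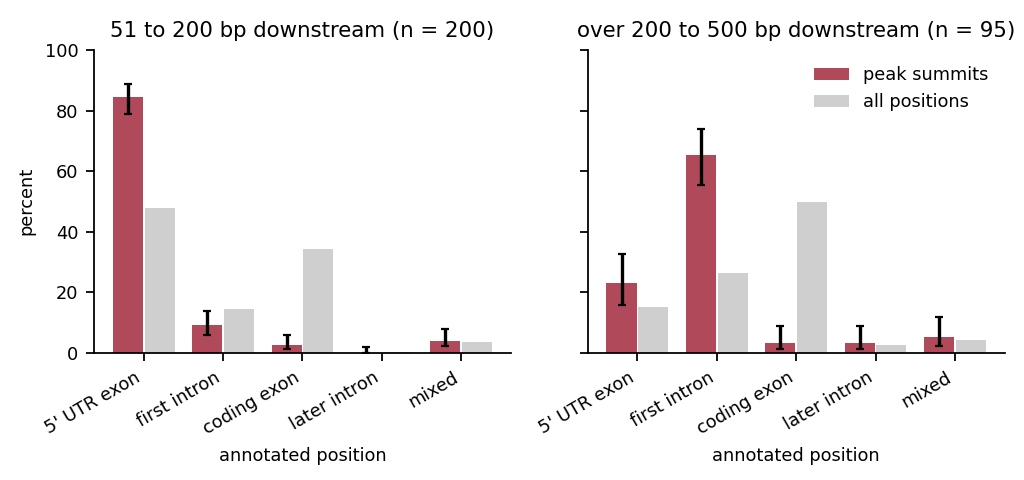
Annotated position of the downstream summits in the near zone (left, 200 peaks) and the far zone (right, 95 peaks). Red bars are the percent of summits with 95% Wilson intervals, and grey bars the percent of all genome positions of that zone around all protein-coding TSSs. 5′ UTR exons held 84.5% of near summits and first introns 65.3% of far summits, while coding exons held 2.50% and 3.16%.

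The genes with a downstream peak were long and had several promoters. The median gene length was 7360 bp, against 5625 bp for genes with an upstream peak, 5719 bp for genes with a peak at the TSS and 2166 bp for all 13945 protein-coding genes. The first intron of the TSS concerned had a median length of 1375 bp, against 952 bp for upstream peaks, 873 bp for peaks at the TSS and 188 bp over all TSSs. Long genes and long first introns were thus shared by all 3 promoter groups. More than 1 TSS was annotated for 71.0% of the member genes, 56.4% of genes with an upstream peak, 63.8% of genes with a peak at the TSS and 26.5% of all genes. A gene with more TSSs offers more places for a peak to be nearest to, so these shares are not corrected for the number of TSSs. The median first exon was 302 bp long, against 274 bp over all TSSs.

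Some near summits also lay just ahead of another TSS. In the near zone 40 of 200 summits (20%, 15.05 to 26.1) lay within 500 bp upstream of a second TSS of the same gene, and 42 (21.0%, 15.9 to 27.2) within 500 bp upstream of a TSS of another gene. In the far zone these counts were 5 and 4 of 95, where the rule leaves less room, since the other TSS must be farther from the summit than the gene's own. The same shares over all genome positions of the zones were not computed, so these counts do not show a trait of the summits. A divergent protein-coding TSS began within 500 bp upstream of 22.7% of the TSSs with a downstream peak (18.3 to 27.8), and of 22.7% of all TSSs. In 169 of the 295 cases the peak interval, most often 370 bp wide, still covered the TSS. Another thresholded summit lay within 2000 bp of 96 members, and the same count was not made for the other thresholded peaks. Of the 290 member genes, 37 also had a TSS nearest to an upstream peak, against 867 of all 13945 protein-coding genes. For peaks at the TSS these counts were 21 and 483.

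The peaks were spread over all the large chromosome arms, with the largest share on 3L. Arm 3L held 27.5% of the members, against 21.6% of thresholded peaks and 19.3% of TSSs. Its 81 members were 8.81 per 100 thresholded peaks of that arm (7.15 to 10.8). The other large arms held 6.25 to 6.65 per 100 (50 on 2L, 55 on 2R, 63 on 3R and 46 on X), with intervals that overlap that of 3L. The difference between arms was not tested. None lay on chromosome 4, which had 4 thresholded peaks in all.

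Downstream peaks tended to rank low. Ranked by the signal value of the authors' peak caller, from 1 for the strongest to 4261, the downstream peaks had a median rank of 2556, which is 60.0% of the way down the list. The median was 2275 for peaks at the TSS and 1716.5 for upstream peaks. In the stronger 2130 peaks were 120 downstream peaks (40.7%), against 59.1% of upstream peaks and 46.5% of peaks at the TSS. The low ranks came from the near zone and the 5′ UTR: median ranks were 2738 in the near zone and 1911 in the far zone, 2793 for 5′ UTR exons and 1825.5 for first introns. Across the 295 peaks the correlation between offset and rank was weak (Spearman rho −0.20).

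A few downstream peaks nevertheless belonged to the strongest of the list. The first was in the first intron of CG11309 (FBgn0037070, chr3L:21304400-21304743, dm6, minus strand), 84 bp past the TSS. Its signal values were 924, 815 and 585 in replicates 1, 2 and 3, and its rank was 17 of 4261. It ranked 10, 12 and 29 in the 3 replicate lists, so it was among the 29 strongest entries each time.

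The next was at Chro (FBgn0044324, chr3L:22878733-22879078, minus strand), which encodes Chromator, a protein of polytene interbands and of the spindle. The summit lay 102 bp past the TSS in the 5′ UTR, with signal values of 675, 619 and 804 and ranks of 24, 24 and 13. At tank (FBgn0031635, chr2L:4837707-4837999) the summit lay 138 bp downstream in the 5′ UTR and ranked 31, 26 and 23. These 3 sites were within the strongest 31 entries of every replicate.

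The polyhomeotic gene ph-p (FBgn0004861, chrX:2137706-2138094), a Polycomb group gene, had its summit 468 bp downstream in the 5′ UTR and ranked 83, 65 and 71. A stronger peak lay 483 bp upstream of a ph-p TSS and ranked 9 in the thresholded list, where the downstream peak ranked 74. The ph-p gene has a tandem copy, ph-d, and how reads shared between the copies were handled is not given in the sources used here. CG8320 (chr2R:15992352-15992661) had a first-intron summit at 85 bp and ranked 66, 88 and 84. At mRpL23, a mitochondrial ribosomal protein gene, a summit 81 bp downstream ranked 177, 129 and 86. In replicate 1 that summit lay 48 bp downstream, inside the 50 bp limit.

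Strong first-intron summits of the far zone were found at CG31612, bchs, wun, egh and scramb2. The bchs gene encodes the BEACH-domain protein Blue cheese, which acts in autophagy, and its summit 434 bp downstream ranked 130, 86 and 303. The wun gene encodes a lipid phosphate phosphatase that steers migrating germ cells. Its summit at 396 bp ranked 109, 187 and 190. The egh gene encodes an enzyme of glycosphingolipid synthesis, and its summit at 357 bp ranked 175, 331 and 139. The phospholipid scramblase gene scramb2 had a summit at 339 bp that ranked 220, 206 and 230. CG31612 had a summit at 482 bp that ranked 178, 121 and 116, and in replicate 2 that summit lay 502 bp downstream, just past the limit. Each of these 5 peaks was in the strongest 331 entries of all 3 replicates.

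Stat92E, which encodes the transcription factor of the JAK-STAT pathway, had a 5′ UTR summit 371 bp downstream (chr3R:20550611-20550860). It ranked 123, 166 and 326. The tRNA methyltransferase gene Trmt6 had a first-intron summit at 108 bp that ranked 197, 223 and 103, and bgcn, a gene of germline differentiation, had a 5′ UTR summit at 145 bp that ranked 336, 163 and 206. CG31729 was the exception among the 15 strongest. Its 5′ UTR summit, 409 bp downstream and 184th in the thresholded list, ranked 303 and 96 in replicates 1 and 2 and had no entry within 100 bp in replicate 3.

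**Figure D3:**
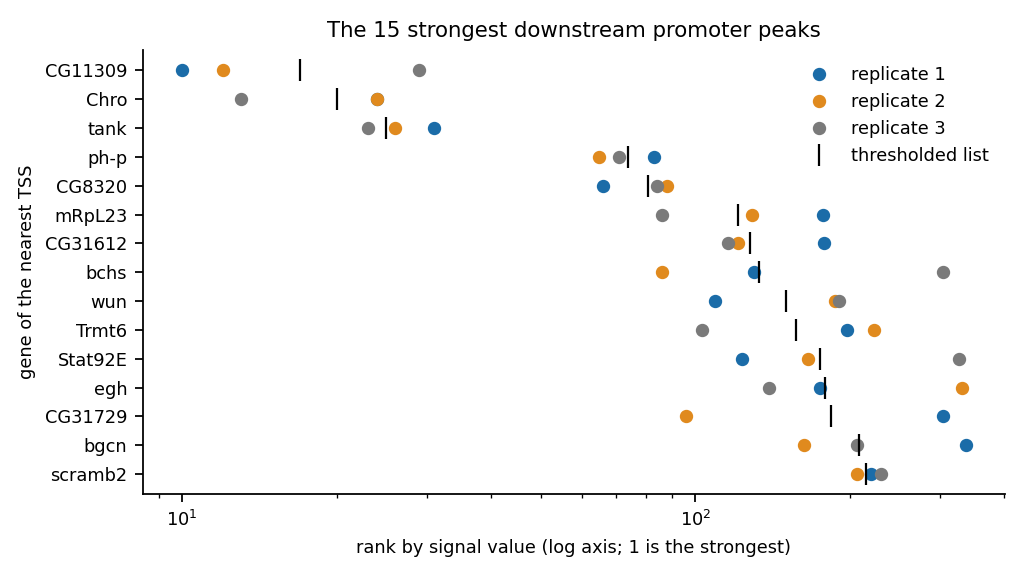
Ranks of the 15 strongest downstream peaks by signal value (log axis, 1 is the strongest) in each replicate's own list (points) and in the thresholded list (black ticks), labelled by the gene of the nearest TSS. CG11309, Chro and tank ranked within the top 31 in every replicate, and CG31729 lacks a point for replicate 3.

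Next in order came the first introns of rudhira, the fly relative of BCAS3 (rank 236), and CG10365 (rank 247), and the 5′ UTRs of CG12316 (rank 271) and of the carbonic anhydrase gene CAH3 (rank 272). Further first-intron members were at the receptor tyrosine phosphatase gene Ptp4E (rank 279), CG31751 (rank 309) and CG9992 (rank 317). The 5′ UTR of Nrx-1, which encodes the synaptic adhesion protein neurexin, held a summit 144 bp downstream that ranked 592, 813 and 214. The sex-determination gene Sxl had a summit 421 bp downstream in a later intron of the nearest transcripts. It ranked 492, 615 and 397.

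The genes with 2 members were wun, Oatp74D, Eip75B, Eip63E and ced-6. At Eip75B, an ecdysone-induced nuclear receptor gene, 5′ UTR summits at 207 bp and 88 bp from different TSSs ranked 1489 and 2110. At Oatp74D, which encodes a transporter that takes up ecdysone, a 5′ UTR summit at 53 bp and a first-intron summit at 256 bp ranked 1103 and 1383. The former had an entry within 100 bp in replicate 1 alone, and the latter in all 3 replicates.

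At the edges of the window, the members just inside 51 bp were at Ten-m, vimar and CG17292, with ranks of 1550, 1700 and 1523. Just outside, at 50 bp, were peaks of Cad87A, Dp1 and CG3609, with ranks of 2363, 1821 and 949. At the far edge raw (488 bp), SREBP (491 bp) and CG13252 (496 bp) ranked 4119, 1281 and 1161, and just outside CG15247 and kuk (501 bp) and CG31523 (503 bp) ranked 2692, 424 and 449.

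Of all 13945 protein-coding genes, 2.08% had a downstream peak. The 29 gene lists examined, which were chosen with earlier results of these data known, named 690 genes, of which 26 (3.77%) were member genes. Of the lists, 13 held no member. No test was made on the lists. The cytoplasmic ribosomal protein genes, of which 57 of 88 had a peak within 50 bp of the TSS and 7 an upstream peak, had none downstream. Glycolysis genes, with an upstream peak at 7 of 13, also had none. The 87 respiratory chain genes, 48 proteasome genes, 22 muscle genes, 20 heat shock and chaperone genes and 18 EGF receptor pathway genes had none either. At the 2.08% of all genes, lists of these sizes would hold few or no members, so their empty counts lie close to that share. The proteasome list also had no upstream peak and no peak at the TSS, and the respiratory chain list had 1 of each.

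Chromatin and insulator genes held 3 members among 37, namely Chro, ph-p and Trl. In that list 5 genes had an upstream peak and 6 a peak at the TSS, and in the bZIP list that follows 5 and 4. Trl encodes the GAGA factor, and its 5′ UTR summit 109 bp downstream ranked 802, 1523 and 317. Among 18 genes of bZIP transcription factors 3 were members: cnc, the fly relative of NRF2, kay, which encodes Fos, and REPTOR, an effector of TORC1 signalling. At cnc a first-intron summit 320 bp downstream ranked 1011, 1091 and 719. At kay a 5′ UTR summit at 182 bp ranked 1217 and 4227 in replicates 1 and 2, with no entry in replicate 3. At REPTOR the ranks were 1618 and 23625, again with no entry in replicate 3. The cnc site was thus strong in each replicate, while those of kay and REPTOR ranked highest in replicate 1.

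Of the signalling pathways, the JAK-STAT, Hippo, Notch, Wnt and JNK lists held 1 or 2 members each, and the Dpp, EGF receptor, Hedgehog and insulin and TOR lists held none. The JAK-STAT list had 2 of 9, Stat92E and its receptor gene dome, where a 5′ UTR summit at 397 bp ranked 2167 and 2323 in replicates 1 and 2 and had no entry in replicate 3. In the Hippo list were 2 of 13, Mer and sd. Mer encodes the upstream regulator Merlin, and its first-intron summit 102 bp downstream ranked 377, 645 and 513. The Scalloped transcription factor gene sd ranked 4409, 3771 and 12791, so only replicate 2 supported it. The Notch list had 2 of 11, mam, which encodes the coactivator Mastermind, and kuz, which encodes a protease that cleaves the receptor. Both had 5′ UTR summits 64 bp downstream and no entry in replicate 3. Apc of the Wnt list (1 of 14) ranked 1003, 1214 and 2424. Upstream peaks were at 2 genes each of the Hippo and Notch lists and 3 of the Wnt list. Peaks at the TSS were at 1 gene each of the Hippo and Notch lists and 3 of the JNK list. The JAK-STAT list had neither kind.

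Among 16 forkhead factor genes, 2 were members, while 5 had an upstream peak and none a peak at the TSS. CHES-1-like had a 5′ UTR summit at 288 bp that ranked 1771, 1742 and 1068, and FoxK had a first-intron summit at 286 bp that ranked 1048 and 1976, with no entry in replicate 3. A stronger peak lay 349 bp upstream of a FoxK TSS (rank 835 in the thresholded list, against 1351 for the member). In the tissue lists, the members were dlg1 and Gli of 20 epidermal and septate junction genes, Syx1A of 24 neuronal genes and hb of 13 genes of the gut list. The muscle, glial, hemocyte and tracheal lists had none. A place in a list does not make a gene a marker of that tissue. The scaffold gene dlg1 had a first-intron summit at 452 bp that ranked 945, 1156 and 945. The hb summit at 304 bp ranked 754 in replicate 2 and 12006 in replicate 3 and had no entry in replicate 1. Other listed members were the E2F partner gene Dp (rank 838), the translation genes pAbp (rank 685) and eIF3h (rank 960), the myosin light chain gene sqh (rank 1585), and Ten-m and NetB of the axon guidance and adhesion list.

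Each replicate contributed its own list of 30000 entries, peaks and background together. A q-value of 0.05 or less was reached by 13828, 12616 and 4015 of them in replicates 1, 2 and 3, so replicate 3 had the fewest clear peaks. A thresholded peak was called supported by a replicate when 1 of that replicate's 4261 strongest entries had its summit within 100 bp. Of all thresholded peaks, 48.5% were supported in all 3 replicates. Of the downstream peaks 92 of 295 (31.2%, 26.2 to 36.7) were, 114 were supported in 2 replicates, 77 in 1 and 12 in none. The thresholded list was made from these replicates, so support was not independent of how the peaks were chosen.

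Full support was less frequent downstream than upstream, where it was 53.9%. The difference was −22.7 percentage points (95% Newcombe interval −28.7 to −16.4, counting error over peaks). Against peaks at the TSS (34.4%) it was −3.16 points (−9.77 to 3.67), an interval that includes 0. Replicate by replicate, downstream peaks were supported in 80.0%, 73.2% and 43.7% and upstream peaks in 77.0%, 83.2% and 71.9%. The differences were 3.04, −9.97 and −28.2 points, with a mean of −11.7 ± 15.7 (SD, n = 3; exact sign-flip permutation test, two-sided, p = 0.5, where 0.25 is the smallest p that 3 replicates allow). The gap was thus largest in replicate 3 and had the opposite sign in replicate 1. Without replicate 3, the mean difference was −3.46 points. Peaks at the TSS had the same order, with 85.6%, 80.5% and 44.3%.

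Within the downstream peaks, support in all 3 replicates was 25% in the near zone and 44.2% in the far zone, a difference of −19.2 points (−30.6 to −7.68). It was 23.0% for 5′ UTR exons and 48.8% for first introns, a difference of −25.7 points (−37.8 to −13.3). Near summits were supported in 81.5%, 69.0% and 36.0% in replicates 1, 2 and 3, and far summits in 76.8%, 82.1% and 60.0%. Most of the difference came from replicate 3: with support asked of replicates 1 and 2 only, near minus far was −6.82 points (−17.9 to 5.12). In replicate 3, 5′ UTR summits were supported in 31.9% and first-intron summits in 68.8%, while in replicate 1 the order was the opposite, with 83.8% and 71.3%.

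The same split appeared when the rule was applied to the 4261 strongest entries of each replicate alone. The near zone held 313, 197 and 99 entries in replicates 1, 2 and 3, highest in replicate 1 and lowest in replicate 3. This order was not particular to the near zone, since entries within 50 bp of a TSS numbered 655, 506 and 260. The far zone held 116, 101 and 98. As a share of entries the far zone was 2.46% ± 0.226 and the near zone 4.76% ± 2.51 (SD, n = 3). Both zones together gave 10.1%, 6.99% and 4.62%, a mean of 7.23% ± 2.73. Upstream entries made up 21.8% ± 1.37. Downstream entries were fewer than upstream ones in each replicate, by 11.8, 16.2 and 15.9 points, and the mean difference was −14.6 ± 2.49 points (exact sign-flip permutation test, two-sided, p = 0.25, the smallest possible). Replicate 3 was also the list with the fewest entries that passed a q-value of 0.05, and the part of that in this split was not tested.

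**Figure D4:**
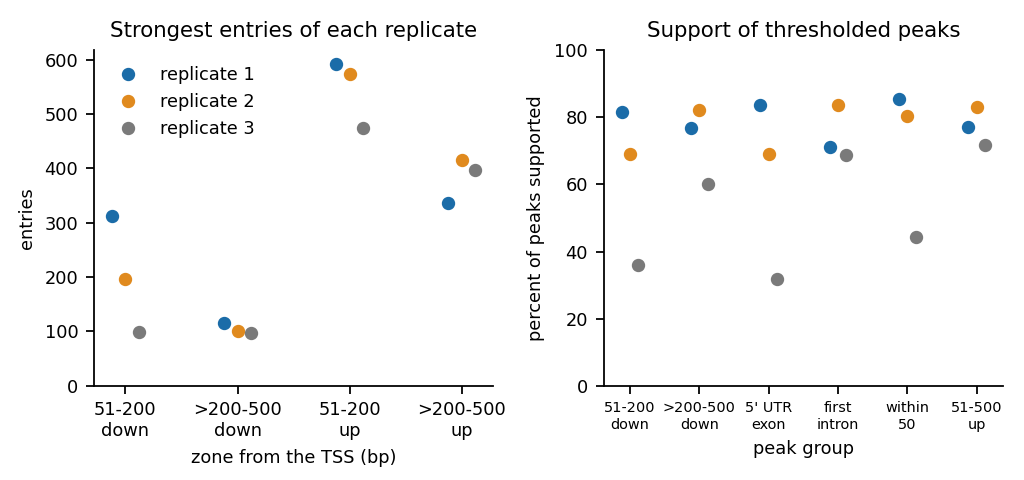
Left, number of each replicate's 4261 strongest entries in 4 zones around the TSS, 1 point a replicate. Right, percent of thresholded peaks supported by each replicate, for the near and far zones, the downstream 5′ UTR and first-intron summits, peaks within 50 bp of a TSS and upstream peaks. The far zone downstream held 116, 101 and 98 entries and the near zone 313, 197 and 99, and replicate 3 is the lowest point in every group on the right.

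Genes were recovered accordingly. Of the 290 member genes, 213, 194 and 117 had a downstream entry among the strongest 4261 of replicates 1, 2 and 3. A downstream entry in all 3 replicate lists was found for 82 genes, and 81 of them had a member. For 179 members an entry lay within 100 bp in all 30000-entry lists. Their 3 replicate summits spanned a median of 36 bp, and for 141 (78.8%) all 3 lay within 51 to 500 bp downstream. The share was 70.0% of 110 near members and 92.8% of 69 far members, the near ones being closer to the 51 bp limit. Signal values of downstream peaks correlated between replicates with a Spearman rho of 0.56 to 0.66 over 184 to 271 peaks, against 0.73 to 0.81 for upstream peaks and 0.47 to 0.65 for peaks at the TSS.

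Base composition and short words were read in windows of 101 bp around each summit. The median GC content was 45.5% in the near zone, 38.6% in the far zone, 36.6% upstream and 48.5% at the TSS. Windows centred 200 bp downstream of 18959 TSS positions with no downstream peak had 46.5%, and those in a first intron had 40.6%. Words were counted on both strands.

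The forkhead word GTAAACA, seen above in bchs, FoxK and CG9449, was found in 21 of 295 windows (7.12%, 4.70 to 10.6), against 2.08% of the windows 200 bp downstream of other TSSs. It was found in 4.50% of near windows (2.39 to 8.33) and 12.6% of far windows (7.38 to 20.8). In first-intron members it was 12.5% (6.93 to 21.5, 10 of 80 windows), against 3.41% of first-intron windows at 200 bp. The median GC content of first-intron members was 36.6%, against 40.6% for those windows. The part of GC content in this difference was not tested. GTAAACA was in 6.61% of all other thresholded peaks, within the interval of the downstream peaks. TAAACA, which GTAAACA contains and which was added after the data had been seen, was in 25.3% of far windows (17.6 to 34.8) and 14.0% of near windows (9.87 to 19.5). Its share was 17.9% in all other thresholded peaks, inside both intervals, 16.5% upstream and 7.83% in windows at 200 bp.

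A repeat of CA, ACACACAC, was in 23 of 295 windows (7.80%, 5.25 to 11.4), against 2.01% of upstream windows, 1.63% at the TSS and 3.10% of windows at 200 bp. In the far zone the share was 12.6% (7.38 to 20.8), with 12 of 95 windows. The TATA box word TATAAA was in 11.2% (8.08 to 15.3) of downstream windows, 18.8% (11.7 to 28.7) of the first-intron ones and 13.0% of first-intron windows at 200 bp. Of the 18 words fixed, these 3 (GTAAACA, ACACACAC and TATAAA) were at least 1.5 times as frequent in downstream peak windows as in windows at 200 bp. The GA repeat GAGAG fell just short of that cut, with 16.3% (12.5 to 20.9) against 11.0%. Its share was 15.4% in all other thresholded peaks and 6.52% in members supported in all 3 replicates. Among members supported in all 3 replicates ACACACAC was in 4.35%, and in 5′ UTR members it was in 5.76%, against 5.52% of 5′ UTR windows at 200 bp. TATAAA was in 8.90% of 5′ UTR members, against 8.16% of such windows, and was more frequent in all other thresholded peaks (14.4%) and upstream (16.0%) than downstream. The E-box CANNTG had the same share in both, 41.7%.

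Words that mark core promoters of housekeeping genes were found at the TSS and not downstream, where the windows at 200 bp hold few as well. TATCGATA, the site of the factor DREF, and GGTCACAC, the word known as Ohler motif 1, were each in 0 of 295 downstream windows, which allows a share of up to 1.02% (3 counts). Windows at 200 bp had them in 0.216% and 0.322%, so no difference from these was detectable. Within 100 bp to either side of the summit, a window that often reaches the TSS, the shares were 0.678% and 3.05%. At the TSS the shares were 4.07% (2.65 to 6.20) and 4.27% (2.81 to 6.44). The initiator word TCAGT was in 33.9% of windows at the TSS (29.9 to 38.2) and 16.6% downstream (12.8 to 21.3), close to the 15.1% of windows at 200 bp. The word CGACG was in 23.0% of near windows (17.7 to 29.3), 24.4% at the TSS and 7.37% of far windows (3.61 to 14.4). Windows at 200 bp had it in 14.2%. The share was 24.1% of 5′ UTR members, against 13.6% of 5′ UTR windows at 200 bp. For first-intron members it was 6.25%, against 8.86% of first-intron windows at 200 bp. Among members supported in all 3 replicates it was 8.70%. GC content has the same order in the near, far and TSS groups, while windows at 200 bp had a median of 46.5%. The part of GC content in the difference was not tested.

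**Figure D5:**
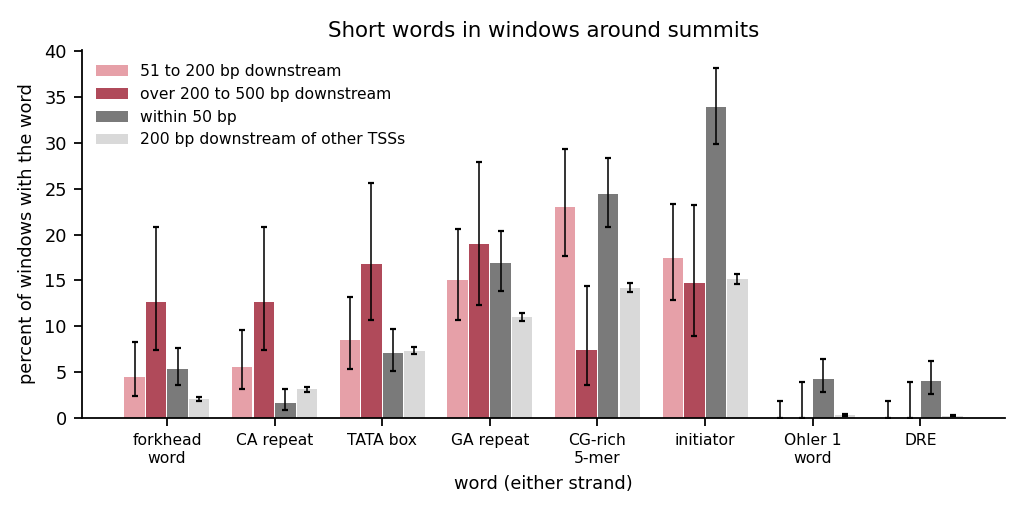
Percent of 101 bp windows that hold each short word on either strand, with 95% Wilson intervals, for near and far downstream summits, summits within 50 bp of a TSS and windows 200 bp downstream of other TSSs. The forkhead word (GTAAACA) and the CA repeat were highest in the far zone (12.6% each), the CG-rich 5-mer (CGACG) was near 23 to 24% in the near zone and at the TSS, and the DRE and the Ohler 1 word had no match downstream.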

How the data were processed

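ChIP-seq of GFP-tagged CG12071 in 3 biological replicates of 1 group was analysed from the lists of peaks deposited by the authors. According to the records deposited with each sample, the authors called entries on every replicate and on the pool of all 3, using 1 shared control, and thresholded them by IDR. Per the labels, the assembly is dm6. Neither the aligner nor the caller is named (not given in the sources used here). Column 7 holds a deposited score, the signal value of the authors' caller, with no stated scale, so entries were ranked by it, never compared in size between lists. The deposited −log10 q-value served to count how many entries of a replicate passed 0.05. The summit is the peak start plus the deposited offset. Read totals were not used here, so depth shows only through those counts. The age field of the labels is not an age in hours of an embryo, and the window of 12 to 24 h comes from the source name.

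TSSs, exons and introns came from Ensembl release 115 (BDGP6.54), and bases were read from RefSeq's release 6 assembly, which has the coordinates of dm6. The 19607 TSSs of 13945 protein-coding genes were used. A position is called mixed where the transcripts of a TSS disagree. Densities divide summits by all genome positions whose nearest TSS lies at that offset. Shares have Wilson 95% intervals and differences of shares have Newcombe intervals. Differences over replicates were tested with an exact sign-flip permutation test. Scripts ran under Python 3.11.15 (SciPy 1.17.1, statsmodels 0.14.6, NumPy 2.4.6, matplotlib 3.10.9, pandas 2.3.3). The computations were tested on simulated data.

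The members, gene lists and words were chosen with earlier results of these data known. The named genes are those of the 15 strongest members, the 10 strongest first-intron and 5 strongest exon members, up to 4 per gene list, and 3 on either side of each edge. The genes Nrx-1 and Sxl, the other coding-exon genes and the genes with 2 members were named after their values were seen. Alternatives covered the TSS set, the window, the support distance, the number of entries, the motif window and each replicate left out. The sequence of 1 window is not reported here.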

Additional observations from a re-analysis of the deposited data

How the results depend on the processing

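The number of downstream peaks was 304 with only the most upstream TSS of each gene, 299 with peak middles and 207 for 51 to 250 bp, and moved most for 51 to 1000 bp (516) and for the stronger 2130 peaks (120). The first-intron share depended on the window, with 9.66% for 51 to 250 bp and 47.3% for 51 to 1000 bp. It was 22.0% with 1 TSS per gene, 35.8% in the stronger 2130 peaks and 42.4% in members supported in all 3 replicates. Support in all 3 replicates was 60.7% when all 30000 entries counted, 39.7% with all entries that passed a q-value of 0.05, 19.7% with 2130 entries and 25.6% for 51 to 250 bp. With each replicate left out it ranged from 34.2% to 61.7%, the latter without replicate 3. The median rank was 53.0% of the way down the list for 51 to 1000 bp and 20.1% for supported members. The mean downstream share of a replicate's strongest entries ranged from 5.81% to 8.53% with 1 replicate left out, and its difference from the upstream share from −16.05 to −13.8 points. That difference was −6.66 with 1 TSS per gene, −20.0 with 2130 entries and −25.2 with 1000. It shrank to −10.1 with all entries that passed a q-value of 0.05 and to −2.90 with all 30000 entries. The support difference from upstream peaks ranged from −19.1 to −3.46 points. All 3 differences kept their sign in every alternative run. Splitting the zones at 150, 250 or 300 bp, chosen after seeing the data, left near minus far support at −20.1 to −18.7 points. It was −17.0 points (−32.0 to 0.09) in the stronger 2130 peaks and −6.82 without replicate 3, where the intervals include 0. The number of words at least 1.5 times as frequent as at 200 bp was 3 of 18 in each setting, with the same 3 words for 25 bp to either side and other words in the remaining settings. With 100 bp to either side TATAAA fell below (21.7% against 14.6%) and GGTCACAC rose above (3.05% against 0.665%), and in supported members ACACACAC fell below (4.35% against 3.10%) and CAGGTAG rose above (1.09% against 0.617%). That CAGGTAG share is of 92 windows and amounts to fewer than 3 counts. The number of words in supported members thus includes 1 share too small to read. No paired analysis was possible because the series holds 1 group of samples and so no second group to pair by replicate number. With 3 replicates no exact p can go below 0.25, and with 2 below 0.5.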
